A study of Mus musculus with 7 samples.

Results

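H3K27ac, an acetylation of histone H3 that marks active promoters and enhancers, was compared by ChIP-seq between mouse embryonic stem cells after 48 h of NeuroD1 induction and the same cells before induction (0 h). The comparison uses 4 of the 7 samples of the series, which are replicates R1 and R2 at 0 h and R1 and R2 at 48 h, and it covers all 66841 merged H3K27ac peaks. The cells were of the A2Lox line and carried an HA-tagged murine NeuroD1 coding sequence under a doxycycline-inducible promoter, in the 0 h samples as well as in the 48 h samples. Cells at 0 h received no doxycycline, and cells at 48 h received 500 ng/ml of it. They had been grown on inactivated embryonic fibroblast feeders in serum medium with LIF, and were used after feeder removal on gelatin. The labels do not say that R1 and R2 came from separate cultures, so that p-values measure only the spread between these libraries. The 2 libraries at 12 h of induction entered the model as well, because all time points share one estimate of the spread, and are otherwise not described.

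NeuroD1 is a proneural basic helix-loop-helix (bHLH) transcription factor. It pairs with E proteins such as Tcf3 and Tcf12 and binds E-boxes, short sites of the form CANNTG, in promoters and enhancers. In neural and endocrine development it acts downstream of the neurogenins, drives cells out of the cell cycle and turns on genes of neuronal differentiation and migration. Embryonic stem cells in LIF hold themselves in a pluripotent state through Pou5f1, Sox2, Nanog, Esrrb and the Klf factors, and acetylation at the enhancers of these genes is a hallmark of that state.

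The following windows of 120 bases of the mm10 genome (GRCm38, forward strand) lie in peaks with the largest changes that are described further on. They show the E-boxes of a small part of each peak, around a site chosen beforehand. Each is centred on a CAGATG site (or CATCTG, the same site read from the other strand) in a gained peak, or on a CACCTG site (or CAGGTG) in a lost peak. These sites were chosen because, of the 10 E-boxes counted, CAGATG had the largest excess in percentage points in gained over lost peaks and CACCTG the largest in lost over gained peaks. Capitals mark every CANNTG in the window. Windows were taken from the first peaks of each group that held such a site within 250 bases of the peak centre and outside annotated exons.
Gained promoter peak of Abcd2, chr15:91190539-91190658: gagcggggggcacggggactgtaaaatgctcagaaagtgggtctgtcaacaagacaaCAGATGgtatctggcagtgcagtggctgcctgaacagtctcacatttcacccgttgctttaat
Gained promoter peak of Cd300ld3, chr11:115049622-115049741: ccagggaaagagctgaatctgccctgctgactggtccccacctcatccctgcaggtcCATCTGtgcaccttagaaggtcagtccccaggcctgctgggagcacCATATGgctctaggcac
Gained promoter peak of Cplx2, chr13:54371754-54371873: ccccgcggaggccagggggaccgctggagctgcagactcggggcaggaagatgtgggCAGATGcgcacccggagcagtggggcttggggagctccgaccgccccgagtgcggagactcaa
Gained intronic peak of Arpp21, chr9:112103269-112103388: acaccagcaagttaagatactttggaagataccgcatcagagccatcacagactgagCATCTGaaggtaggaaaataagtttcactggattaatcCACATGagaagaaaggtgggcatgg
Gained intronic peak of Map2k6, chr11:110480138-110480257: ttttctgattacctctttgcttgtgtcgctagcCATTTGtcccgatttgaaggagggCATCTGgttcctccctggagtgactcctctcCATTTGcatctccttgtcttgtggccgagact
Gained intronic peak of Fam241b, chr10:62114315-62114434: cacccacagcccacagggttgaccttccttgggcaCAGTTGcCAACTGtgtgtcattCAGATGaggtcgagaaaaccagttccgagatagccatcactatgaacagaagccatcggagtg
Lost promoter peak of Dusp1, chr17:26510439-26510558: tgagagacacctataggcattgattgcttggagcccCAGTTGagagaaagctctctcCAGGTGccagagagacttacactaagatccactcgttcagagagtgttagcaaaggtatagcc
Lost promoter peak of St14, chr9:31131353-31131472: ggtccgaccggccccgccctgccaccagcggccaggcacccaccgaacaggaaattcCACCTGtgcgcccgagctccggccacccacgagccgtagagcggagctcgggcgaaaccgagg
Lost intergenic peak near Inhbb, chr1:119399107-119399226: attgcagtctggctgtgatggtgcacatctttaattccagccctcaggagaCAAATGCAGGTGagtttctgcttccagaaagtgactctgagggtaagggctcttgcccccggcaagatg
Lost intronic peak of Mras, chr9:99418277-99418396: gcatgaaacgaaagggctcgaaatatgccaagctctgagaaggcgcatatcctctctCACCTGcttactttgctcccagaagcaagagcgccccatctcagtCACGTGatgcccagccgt
Lost intergenic peak far from Srrm4, chr5:116790651-116790770: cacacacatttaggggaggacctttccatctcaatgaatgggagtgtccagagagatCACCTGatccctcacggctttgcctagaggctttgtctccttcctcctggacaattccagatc

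At 48 h, 5723 peaks gained H3K27ac (8.56% of all peaks tested) and 3642 lost it (5.45%). All adjusted p-values given here come from the quasi-likelihood test of edgeR, adjusted after Benjamini and Hochberg across the 66841 peaks, and a peak is called gained or lost where this value is under 0.05. Gains were larger than losses, with a median log2 fold change of 1.68 against -0.94, and 2116 gained peaks against 72 lost peaks changed 4-fold or more. Gained peaks also held fewer reads per library, with a median of 34.5 against 81.8 in lost peaks. What part this had in the size of the changes was not tested. Gains took 61.1% of the called peaks with library totals as the scale and 77.7% with DESeq2, which called 3592 gains and 1030 losses. In 5713 of the gained peaks both 48 h libraries lay above both 0 h libraries, as they did in 23.9% of all peaks. In all 3642 lost peaks both lay below, as in 28.7% of all peaks. Of the gained peaks, 799 overlapped a promoter window (2 kb on either side of a TSS of a protein-coding gene), 2511 lay in introns and 2271 between genes. Of the lost peaks, 472 lay at promoters, 1064 in introns and 2007 between genes, the last being 55.1% of them against 39.7% of gained peaks. Of all promoter peaks 4.87% gained and 2.88% lost H3K27ac, of intronic peaks 11.2% and 4.75%, and of intergenic peaks 9.02% and 7.97%. The lost peaks include 1133 of a repeat that lies mostly between genes and is described further on. Places of lost peaks were not counted without it. The promoter counts also moved with the library left out. Gained promoter peaks numbered 389 without 0 h R1, 196 without 0 h R2, 975 without 48 h R1 and 2799 without 48 h R2, and lost ones 168 without 0 h R1, 61 without 0 h R2, 1600 without 48 h R1 and 891 without 48 h R2. With the GC offset of the next paragraph there were 1858 gained promoter peaks. The counts depend on the 0 h libraries. Gains numbered 3270 without 0 h R1 and 1642 without 0 h R2, and losses 1195 and 325. Each of these fits leaves 1 library at 0 h, which is then assumed to vary like the others. Without 48 h R1 there were 7580 gains and 5612 losses, and without 48 h R2 8267 and 7470.

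The 48 h libraries differed from each other along GC content, and values are therefore given for each of them. Each was set against the mean of the 0 h libraries as a log2 ratio of normalised counts (reads per library scaled to the same total, the mean over the 6 libraries, plus 8). In the peaks with the lowest GC content (22.4 to 41.4%, 6679 peaks) the median ratio was -0.16 in R1 and 0.36 in R2. In those with the highest (61.9 to 84.1%, 6679 peaks) it was 0.02 in R1 and -0.37 in R2. Over the 15145 promoter peaks that were not called, the median was 0.14 in R1 and -0.09 in R2, and over the 799 gained promoter peaks it was 1.19 and 0.86. In gained intergenic peaks R1 and R2 had medians of 1.19 and 1.18. The replicates were more than 1 log2 unit apart in 279 gained peaks (4.88%) and in 16 lost peaks (0.439%), against 1999 uncalled peaks (3.48%). Over the 3642 lost peaks the medians were -0.91 in R1 and -0.79 in R2. Gained and lost peaks were called with both 48 h libraries together, and both ratios share the 0 h mean. Among called peaks this favours agreement between R1 and R2, so that it does not measure how well they agree over all peaks. Peaks were also tested with R1 or R2 as the only 48 h library, against the same 0 h libraries. There were 104 peaks that R2 alone called gained and R1 alone called lost, and 52 with the opposite calls. With an offset for GC content fitted to each library, 8041 peaks gained and 5220 lost H3K27ac.

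**Figure D1:**
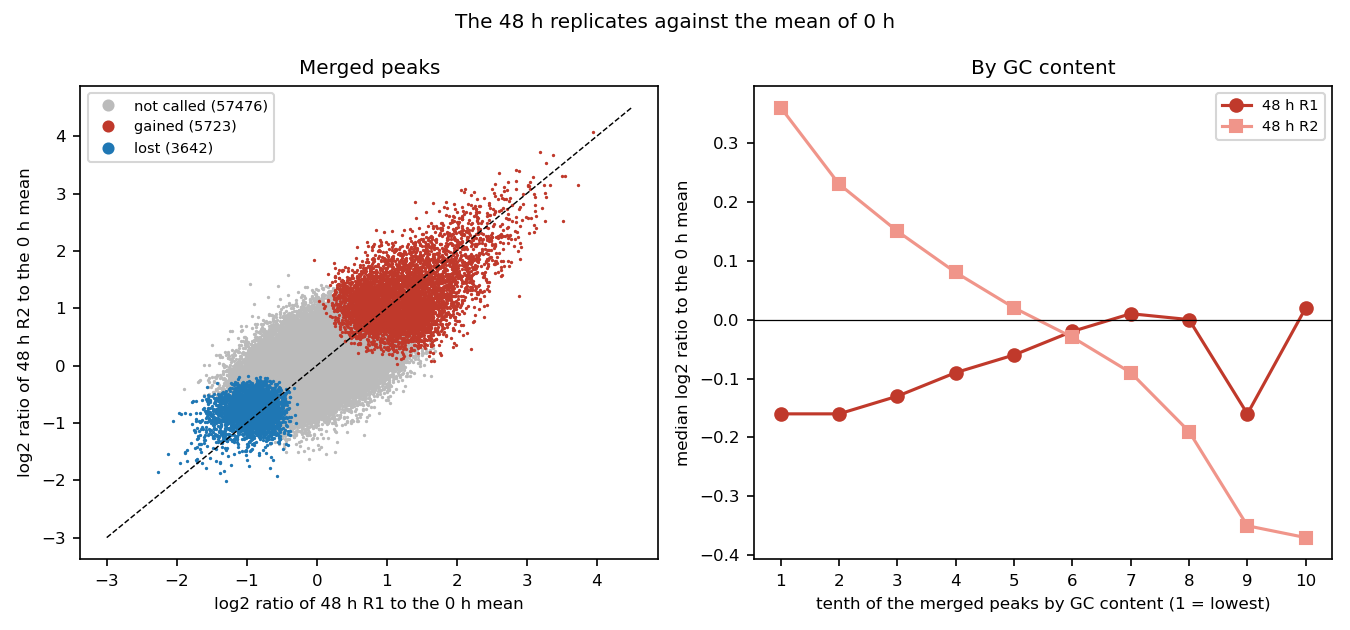
The left panel plots each merged peak by its log2 ratio to the 0 h mean in 48 h R1 (x axis) and 48 h R2 (y axis), coloured by its call, with the line of equal change dashed. The right panel plots the median ratio of each replicate (y axis) over 10 equal groups of the peaks by GC content (x axis), where R2 falls from 0.36 to -0.37 and R1 stays between -0.16 and 0.02.

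The promoter peaks with the largest gains included those of neuronal transcription factors, a synaptic gene and a neuronal channel. Values are normalised counts in the order 0 h R1, 0 h R2, 48 h R1 and 48 h R2 unless reads are named. The peak at the start of Zbtb18, which encodes a zinc finger repressor needed for cortical neuron differentiation, had 4.1, 0, 66.6 and 58.5 (chromosome 1, 177445557 to 177446228; log2 fold change 4.82, SE 0.54, adjusted p = 1.0e-06). A promoter peak of Ebf2, a helix-loop-helix factor of neuron differentiation and migration, had 3.08, 5.31, 96.6 and 58.5 (chromosome 14, 67233344 to 67234435; log2 fold change 4.16, SE 0.44, adjusted p = 5.0e-07). The peak of Cplx2, a complexin that binds the SNARE complex in vesicle release, had 19.5, 12.7, 268 and 130 (chromosome 13, 54370869 to 54372833; log2 fold change 3.60, SE 0.35, adjusted p = 1.7e-07). These promoters were low at 0 h, and R1 was the higher 48 h library in each. Abcd2, a peroxisomal fatty acid transporter, had 8.21, 1.06, 88.8 and 65.3 (log2 fold change 3.99, SE 0.46, adjusted p = 1.4e-06), and Frmd4a, a FERM domain protein of cell polarity, had 11.3, 4.25, 110 and 61.1 (log2 fold change 3.41, SE 0.41, adjusted p = 2.9e-06). Eml1, a microtubule-associated protein needed to place cortical neurons, had 5.13, 10.6, 101 and 65.3 (log2 fold change 3.38, SE 0.40, adjusted p = 2.3e-06). These peaks were chosen for the size of their change and for both 48 h libraries lying above both 0 h libraries. Their groups could therefore not overlap.

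Cd300ld3, Scn3a and Pou3f2 were also among the 10 largest gains at promoters. Scn3a, a voltage-gated sodium channel, had 1.03, 7.43, 36.6 and 50.7 (log2 fold change 3.36, SE 0.49, adjusted p = 3.7e-05). Here 48 h R2 was the higher library. Pou3f2, a POU factor of neural precursors also known as Brn2, had 8.21, 8.49, 113 and 30.1 (log2 fold change 3.05, SE 0.51, adjusted p = 2.0e-04), so that R1 stood 2.89 and R2 1.22 above 0 h on the log2 scale. Of the 10 promoter peaks, 9 were called in all 10 other fits, these named ones among them, and the other was not called with DESeq2. The peaks were chosen for large changes in the same counts, which favours such calls.

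**Figure D2:**
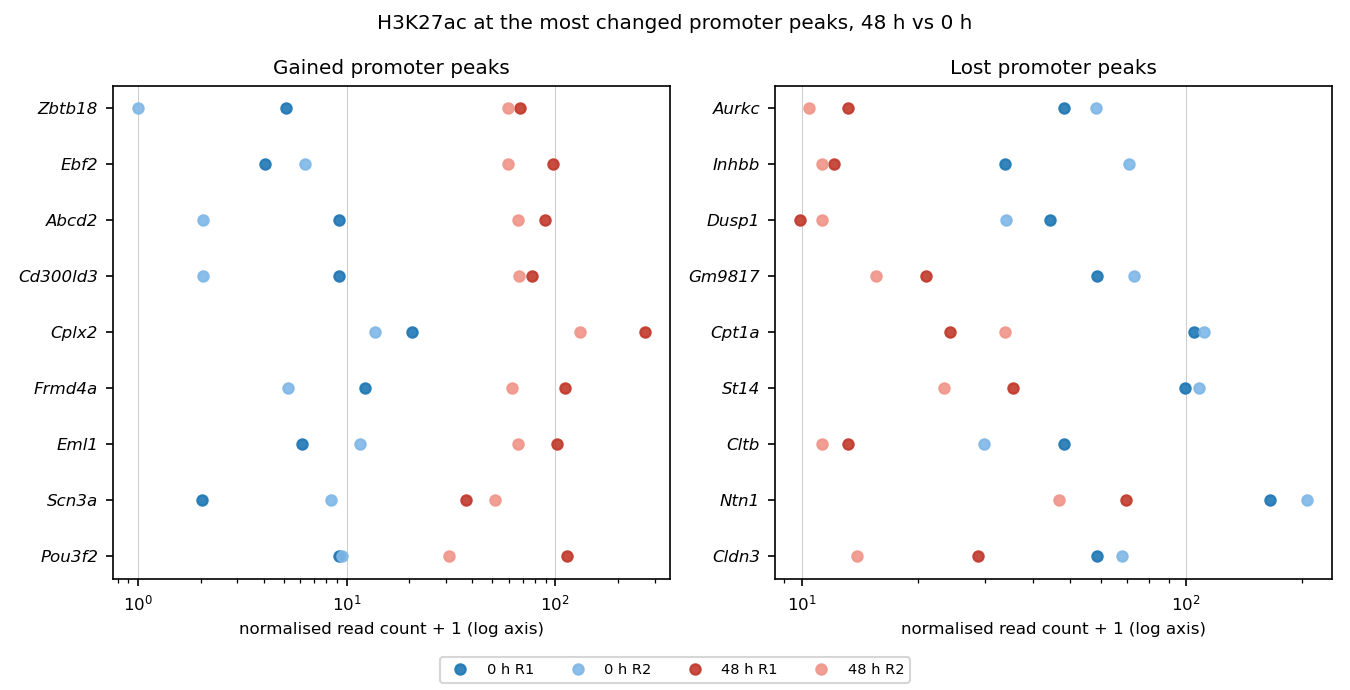
Normalised read count plus 1 (x axis, log scale) of 9 of the 10 gained and 9 of the 10 lost promoter peaks with the largest fold changes (rows), with 1 point per library. The rows were chosen for a difference between 48 h (red) and 0 h (blue) points, and the spacing of the points of one colour shows the spread between replicates.

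Away from promoters, ranking by fold change led to peaks with almost no reads at 0 h, which reached the minimum of 20 reads on average through the 48 h libraries. In the 9 peaks of the 10 largest in which neither 0 h library held more than 3 reads, the peak at 48 h ranged from 28.8-fold higher (95% counting interval 9.55 to 142), at Fam241b, to 137-fold higher (95% counting interval 24.3 to 5465), in a peak between genes whose nearest TSS is that of Olfm4. A peak in an intron of Zc3h12c, a member of a family of RNA-degrading zinc finger proteins, held 3, 1, 66 and 94 reads and was 37.2-fold higher (95% counting interval 14.2 to 138). A peak 14058 bp from the TSS of Helt, a Hairy-related bHLH repressor of midbrain GABAergic neurons, held 2, 0, 37 and 46 reads and was 38.5-fold higher (95% counting interval 10.3 to 324). A peak in an intron of Map2k6, a kinase that activates p38, held 1, 2, 50 and 56 reads and was 32.8-fold higher (95% counting interval 10.9 to 162). The Fam241b and Map2k6 windows printed above come from these peaks, and each holds 3 E-boxes. The last of the 10 had the most reads, an intergenic peak 77827 bp from the TSS of Fbxo8, an F-box protein, with 10.3, 11.7, 284 and 310 normalised counts (chromosome 8, 56627556 to 56630278; log2 fold change 4.75, SE 0.30, adjusted p = 3.9e-10). R1 and R2 lay 3.95 and 4.07 above 0 h there. All 10 were called in the 10 other fits. These fits use the same counts by which the peaks were chosen, so that this is no separate support.

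Gained peaks stood in groups. The next peak along the chromosome was also gained for 40.5% of gained peaks, against 8.57% of all peaks, and was also lost for 17.2% of lost peaks, against 5.45%. There were 126 runs of at least 5 neighbouring gained peaks and 9 of lost peaks, against 29 and 0 with DESeq2 and without 0 h R1, 4 and 0 without 0 h R2, 150 and 12 without 48 h R1, and 166 and 30 without 48 h R2. The longest run was 17 gained peaks over 266 kb of chromosome 6 (51591971 to 51857956), nearest to Snx10, a sorting nexin, and Skap2, a Src-associated adaptor protein. Their log2 fold changes ran from 1.48 to 4.17, and their summed normalised counts were 269, 195, 1736 and 1613. A run of 14 peaks over 144 kb of chromosome 7 (132242986 to 132386622) lay at Chst15, a chondroitin sulphotransferase, within the long annotated span of Fgfr2, an FGF receptor, with sums of 491, 346, 2072 and 1444. The runs consist of peaks called gained in these same libraries, which fixes that their sums are higher at 48 h. The third longest lay in introns of Nxn, nucleoredoxin, with 13 peaks over 43.1 kb of chromosome 11 (76278941 to 76322028). Its peak with the most reads was 16317 bp wide and had 747, 613, 3132 and 3089 (log2 fold change 2.19, SE 0.14, adjusted p = 5.4e-10). Runs of 11 and 10 gained peaks on chromosome 3 held Nhlh2, a neuronal bHLH gene, with Casq2 and Slc22a15 (101923788 to 102062992), and Tspan5, a tetraspanin, with Rap1gds1 (138826590 to 139033236). Their sums were 351, 279, 1171 and 1069, and 160, 106, 445 and 639.

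Each peak was assigned to the protein-coding gene with the nearest TSS, which need not be the gene it acts on. Of 15849 genes with a peak, 2586 had at least 1 gained peak, 2459 at least 1 lost peak and 457 both. There were 634 genes with 3 or more gained peaks, and these held 55.2% of all gained peaks. For lost peaks there were 257 such genes with 26.8%. By peaks in the gene body or within 10 kb of it, 527 and 166 genes had 3 or more. Without 0 h R1 the nearest-TSS counts were 344 and 38, without 0 h R2 133 and 9, without 48 h R1 868 and 404, and without 48 h R2 868 and 748.

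Insm1, a zinc finger factor of neuronal and endocrine progenitors, had 21 gained and no lost peaks among 27. Of the 21, 18 lay within the neighbouring gene Ralgapa2, up to 145 kb from the Insm1 TSS. The sum over the 27 peaks was 1061, 782, 2566 and 3048, and the promoter peak had 71.8, 61.6, 362 and 269 (log2 fold change 2.24, SE 0.23, adjusted p = 3.2e-07). Insm1 was chosen for its number of gained peaks, and these are most of the peaks summed, so that a higher sum at 48 h follows from the choice. Ccdc182, a coiled-coil gene, was nearest to 36 peaks of which 21 gained, but 13 of these lay within Msi2, an RNA-binding protein of neural progenitors, and the Ccdc182 promoter peak was not called (log2 fold change 0.36, adjusted p = 0.54). In the same way 16 of 20 gained peaks nearest to Glod4 lay in Nxn, and the Glod4 promoter did not pass the test (0.11, adjusted p = 0.77). By gene bodies, Nxn had 28 gained and no lost peaks among 43.

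Tox3, an HMG-box factor of neurons, had 19 gained peaks among 25 over 571 kb, with sums of 666, 471, 1955 and 2037 and a gained promoter (log2 fold change 1.98, adjusted p = 1.3e-04). Chd7, a chromatin remodeller of neural progenitors, had 18 among 35, and its promoter did not pass (0.62, adjusted p = 0.056). Plcb1, a phospholipase C, had 16 among 21 with sums of 430, 385, 952 and 1685, all 16 within the gene. Here R2 was above R1, with median ratios of 1.53 and 0.95 over the gained peaks. Chst15 had 17 among 20 and Tspan5 16 among 24. Marcks, an actin-binding substrate of protein kinase C, had 16 gained and 1 lost among 32, over 808 kb, 15 of the 16 between genes, with sums of 1350, 1209, 2998 and 2875. Sox4, a SoxC factor of newborn neurons, had 18 gained and 3 lost among 42. The ranking by the net count ends here with a tie, since Fmnl2, a formin, and Map4k3, a kinase of the MAP kinase cascade, also had 15 more gained than lost peaks.

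**Figure D3:**
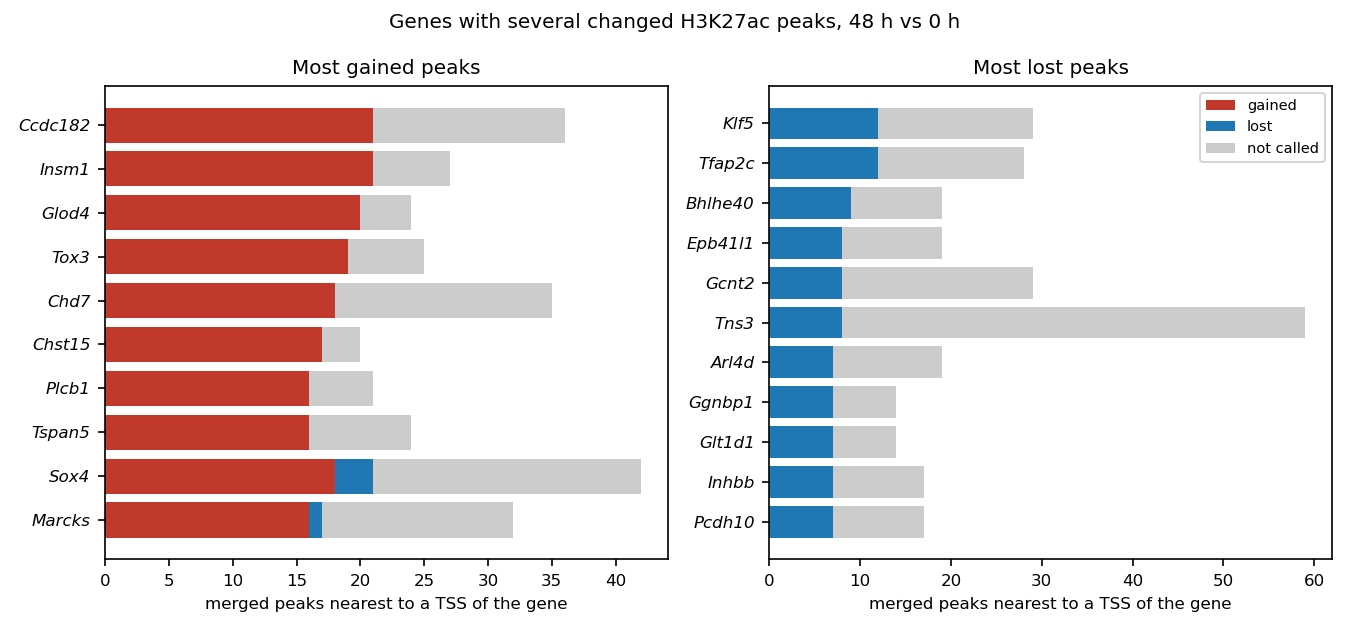
Number of merged peaks nearest to a TSS of each gene (x axis), split into gained, lost and uncalled, for the 10 genes with the most gained peaks in their net count and the 11 with the most lost (rows). Insm1 has 21 gained among 27, and Klf5 and Tfap2c have 12 lost each with no gain.

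To describe functions, each gene was given its promoter peak with the most reads, which 13132 genes had. Of these, 4.07% gained and 2.83% lost H3K27ac, and their median log2 fold change was 0.06 (R1 0.18, R2 -0.09). Among 40 transcription factors of neuronal differentiation, 28 had such a peak, of which 13 gained and 1 lost H3K27ac, with a median of 0.97 (R1 1.14, R2 0.38). Onecut1, a cut homeodomain factor, had 59.5, 50.9, 299 and 224 (log2 fold change 2.24, SE 0.23, adjusted p = 3.5e-07). Neurod4, a bHLH factor of the same family as NeuroD1, had 30.8, 18, 150 and 187 (log2 fold change 2.78, SE 0.29, adjusted p = 3.8e-07), and Nhlh2 had 19.5, 22.3, 119 and 49.9 (log2 fold change 1.98, SE 0.36, adjusted p = 5.1e-04). R1 was the higher 48 h library at Onecut1 and Nhlh2, R2 at Neurod4. The other gains were at Insm1, Ebf2, Hes6, Neurod1, Nhlh1, Pou3f2, Sox11, Zeb2, Sox4 and Ebf3, and the loss was at Runx1t1, a corepressor (log2 fold change -0.88, adjusted p = 0.03). Gains numbered 12 without 0 h R1, 9 without 0 h R2, 12 without 48 h R1 and 21 without 48 h R2, and 9 of the 13 were called in every other fit. Over all peaks nearest to these 40 genes, 111 of 291 gained (38.1%) and 11 lost H3K27ac (3.78%). The shares over all peaks were 8.56% and 5.45%.

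The Neurod1 gene itself had 3 gained peaks among 5. The peak just upstream of the gene (chromosome 2, 79456988 to 79460121) had 71.8, 63.7, 187 and 268 (log2 fold change 1.75, SE 0.22, adjusted p = 6.6e-06), with R2 the higher 48 h library. A peak that covers the gene (79454052 to 79456929) had 106, 90.2, 276 and 250 (log2 fold change 1.42, SE 0.21, adjusted p = 4.4e-05). It includes the coding sequence, which the transgene shares, so that reads of the inserted copy cannot be told apart from those of the gene. The upstream peak lies outside the annotated gene. At Hprt, a housekeeping gene on chromosome X, neither of 2 peaks was called. Tcf12, which encodes an E protein, had 6 gained peaks among 14. At the annotated start of Tcf12 (chromosome 9, 72110510 to 72112363) the peak had 192, 197, 366 and 233 and was not called (log2 fold change 0.62, SE 0.21, adjusted p = 0.053), whereas an internal promoter (71896966 to 71899097) had 60.5, 42.5, 140 and 149 and gained H3K27ac (log2 fold change 1.48, SE 0.25, adjusted p = 2.5e-04). An intronic peak (71942123 to 71942409) held no reads at 0 h and 16 and 12 at 48 h, at least 8.67-fold higher against 3 reads over the 0 h group.

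Genes that shape the growing neuron were among the gains. Among 38 genes of the neuronal cytoskeleton and of migration, 34 had a promoter peak, of which 8 gained and none lost H3K27ac (median 0.34, R1 0.62, R2 0.00). Crmp1, a collapsin response mediator that transmits guidance signals, had 429, 410, 1017 and 937 (log2 fold change 1.22, SE 0.15, adjusted p = 5.4e-06). Gap43, a protein of growth cones, had 51.3, 37.1, 235 and 109 (log2 fold change 1.94, SE 0.31, adjusted p = 1.2e-04), with R1 well above R2. Tspan5, Tubb3, Map1b, Rnd3 and Kif5c were the other gained genes that are named here. The count was 5 without 0 h R1, 5 without 0 h R2, 6 without 48 h R1 and 16 without 48 h R2. Of all 246 peaks nearest to the list, 75 gained (30.5%) and 6 lost H3K27ac (2.44%), against 8.56% and 5.45% of all peaks. Among 44 genes of axon guidance and adhesion, the promoter peak with the most reads gained it in 7 of 29 and lost it in none (median 0.53, R1 0.85, R2 0.05), with Nrcam, an adhesion molecule of axons, at 36.9, 29.7, 141 and 69.6 (log2 fold change 1.64, SE 0.32, adjusted p = 9.1e-04). This count was 2 without 0 h R1, 0 without 0 h R2, 3 without 48 h R1 and 19 without 48 h R2. A weaker promoter peak of Ntn1, the guidance cue netrin, was lost and is described with the losses, while its peak with the most reads did not pass the test (-0.74, adjusted p = 0.061). Of all 383 peaks nearest to the list 71 gained (18.5%) and 38 lost H3K27ac (9.92%), the losses at 20 genes.

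For 51 genes of the synapse, 4 of 29 promoters gained H3K27ac, Cplx2, Pclo and Gria4 among them, and none lost it (median 0.14, R1 0.36, R2 -0.15). Pclo, a scaffold of the presynaptic active zone, had 95.4, 79.6, 232 and 140 (log2 fold change 1.08, SE 0.25, adjusted p = 0.005). Without 48 h R2 the count was 11, and without 0 h R2 it was 2. Of all 249 peaks nearest to the list, 48 gained (19.3%) and 12 lost H3K27ac (4.82%), against 8.56% and 5.45% of all peaks. Among 38 ion channel genes, 2 of 20 gained it, with Scn1a at 17.4, 15.9, 103 and 136 (log2 fold change 2.84, SE 0.30, adjusted p = 5.3e-07). The median was above 0 in R1 and below 0 in R2 (median 0.35, R1 0.60, R2 -0.14), and 9 gained it without 48 h R2 and 1 without 0 h R2. Scn1a lay beyond 0 h in both 48 h libraries by 2.17 and 2.54. Among 24 neuronal RNA-binding genes, 2 of 19 gained it (median 0.28, R1 0.53, R2 -0.04), 8 without 48 h R2 and 1 without each of the other libraries in turn. These were Srrm4, a splicing regulator of neuronal microexons, at 150, 117, 655 and 417 (log2 fold change 2.00, SE 0.22, adjusted p = 6.1e-07), and Rbfox3, the antigen of the NeuN antibody, at 17.4, 17, 77.7 and 21.5 (log2 fold change 1.48, SE 0.46, adjusted p = 0.032), where R2 alone was only 0.23 above 0 h. Srrm4 thus gained H3K27ac at its promoter while a peak at -199133 bp from its TSS was among the 10 largest losses away from promoters. Among 34 neuroendocrine genes, 2 of 15 gained it (median 0.39, R1 0.60, R2 -0.01, 6 without 48 h R2, 0 without 0 h R2), Pcsk2, a prohormone convertase (1.21), and Scg5, its chaperone (0.87).

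**Figure D4:**
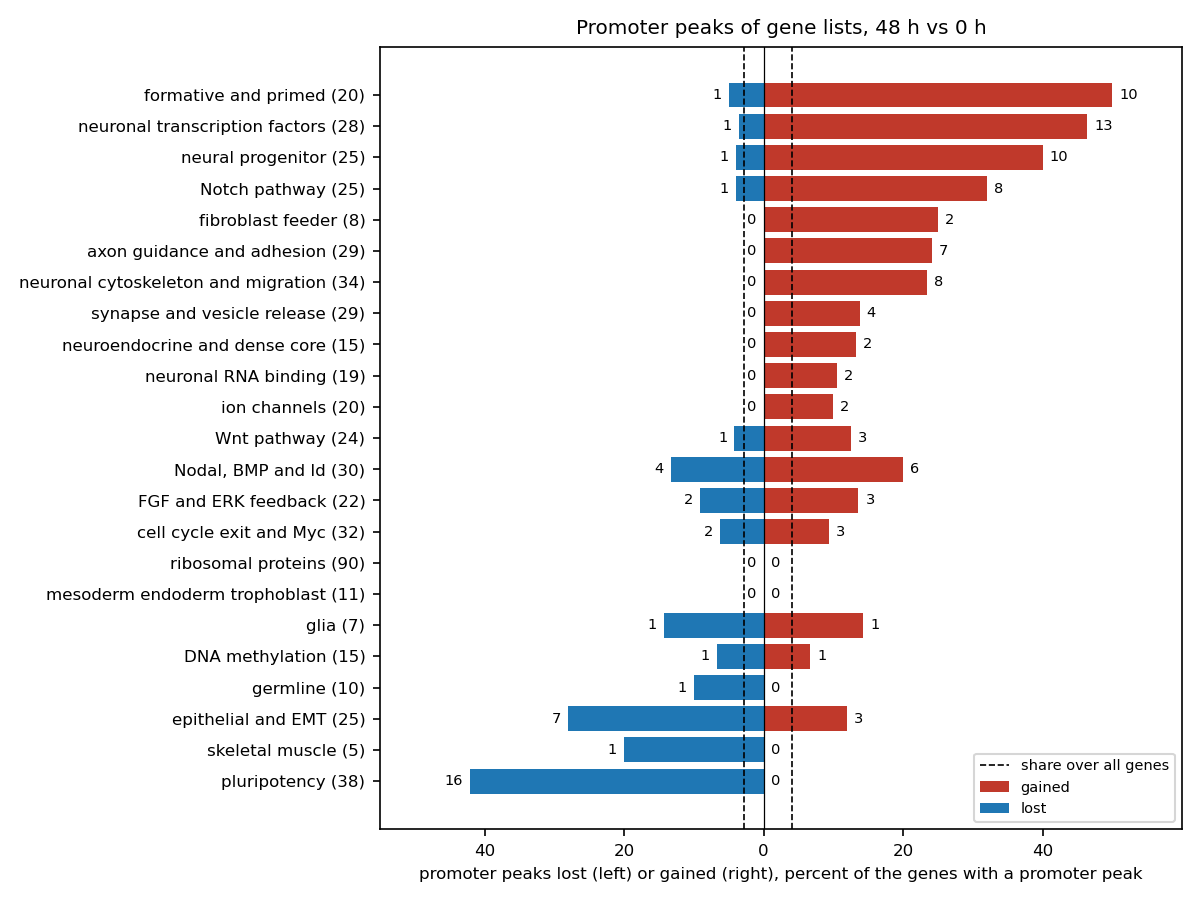
Share of promoter peaks that gained (red, right) or lost (blue, left) H3K27ac in each gene list (x axis, percent), with the number of genes with a promoter peak beside each name and the number of calls beside each bar. The dashed lines mark 4.07% and 2.83%, the shares over all genes, which neuronal transcription factors (13 of 28) and pluripotency genes (16 of 38) exceed.

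In Notch signalling, by which newborn neurons hold their neighbours in the progenitor state, some ligands and modulators gained H3K27ac. Of 29 genes, 25 had a promoter peak, with 8 gained and 1 lost (median 0.30, R1 0.47, R2 0.10). The other 16 were not called. Among these were the ligands Jag1 (log2 fold change 0.30) and Jag2 (-0.63), and Hes1 (-0.47) and Hes5 (0.03). Dll3, a ligand that acts within the same cell, had 155, 125, 674 and 545 (log2 fold change 2.12, SE 0.19, adjusted p = 5.6e-08). Mfng, a glycosyltransferase of Notch receptors, had 50.3, 34, 242 and 187 (log2 fold change 2.34, SE 0.25, adjusted p = 6.8e-07), and Hey2, a Hairy-related bHLH repressor, had 11.3, 5.31, 69.9 and 42.1 (log2 fold change 2.71, SE 0.42, adjusted p = 7.2e-05). These 3 were called in every other fit. The ligand Dll1, the receptor Notch1, the coactivators Maml2 and Maml3, and Numbl also gained H3K27ac, with log2 fold changes from 0.63 to 1.06, and the loss was at Notch4 (-1.14, adjusted p = 0.0042). The gains numbered 4 without 0 h R1, 3 without 0 h R2, 8 without 48 h R1 and 14 without 48 h R2.

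Gains were also found at genes of neural progenitors and of the formative state, a step out of naive pluripotency. Among 32 neural progenitor genes, 10 of 25 promoters gained and 1 lost H3K27ac (median 0.81, R1 1.06, R2 0.14). Meis1, a TALE homeodomain factor, had 168, 121, 669 and 378 (log2 fold change 1.85, SE 0.23, adjusted p = 5.2e-06), and Irx3, an Iroquois factor, had 146, 119, 535 and 253 (log2 fold change 1.56, SE 0.26, adjusted p = 1.6e-04). Sp8, a zinc finger factor, had 122, 94.5, 543 and 229 (log2 fold change 1.82, SE 0.28, adjusted p = 6.5e-05) and 12 gained peaks among 14. In these 3, R1 was well above R2. The defining progenitor genes Sox1, Pax6 and Nes were not called, with log2 fold changes of -0.41, -0.16 and -0.06 (adjusted p = 0.37, 0.69 and 0.92). The gained progenitor genes numbered 7 without 0 h R1, 3 without 0 h R2, 5 without 48 h R1 and 17 without 48 h R2. Among 20 formative genes, 10 gained and 1 lost H3K27ac (median 0.73, R1 0.78, R2 0.23). Sall2, a zinc finger factor, had 276, 179, 882 and 844 (log2 fold change 1.92, SE 0.19, adjusted p = 1.8e-07), and Dnmt3a, a DNA methyltransferase, had 933, 957, 1544 and 1620 (log2 fold change 0.74, SE 0.14, adjusted p = 7.0e-04). Otx2, a homeodomain factor of this state and of the forebrain, had 135, 89.2, 217 and 273 (log2 fold change 1.12, SE 0.22, adjusted p = 0.0011). Pou3f1, Fgf15, Lef1, Zic2, Car4, Pim2 and Fgf5 also gained it. This count was 6 without 0 h R1, 3 without 0 h R2, 9 without 48 h R1 and 13 without 48 h R2.

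The labelled cell type was checked against its markers. Promoter peaks of the embryonic stem cell genes Pou5f1, Nanog, Sox2, Esrrb, Zfp42 and Klf4 summed to 14117, 14407, 9964 and 12196. Of the neuronal markers, Tubb3 gained H3K27ac, Map2, Elavl3 and Stmn2 were not called and Dcx had no promoter peak. None of 4 glial and 4 skeletal muscle markers had one, and of the feeder markers only Col1a1 did, with 15, 16, 10 and 7 reads. In bulk chromatin, a change in a share of the cells cannot be told apart from a smaller change in all of them.

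The 472 lost promoter peaks had median ratios of -0.82 in R1 and -0.80 in R2. Aurkc, an Aurora kinase of meiosis, had the largest (log2 fold change -2.27, SE 0.36, adjusted p = 1.1e-04), with 47.2, 57.3, 12.2 and 9.46. Cpt1a, which brings fatty acids into mitochondria, had 104, 110, 23.3 and 32.7 (log2 fold change -1.91, SE 0.28, adjusted p = 3.6e-05). The choice of these peaks required both 48 h libraries to lie below both 0 h libraries, as they did at Cpt1a. St14, the epithelial protease matriptase, had 98.5, 107, 34.4 and 22.4 (log2 fold change -1.88, SE 0.31, adjusted p = 1.4e-04), and Cldn3, a claudin of tight junctions, had 57.5, 66.9, 27.8 and 12.9 (log2 fold change -1.65, SE 0.35, adjusted p = 0.0021). Ntn1 had 164, 205, 68.8 and 45.6 (log2 fold change -1.70, SE 0.25, adjusted p = 4.4e-05). Dusp1, a MAP kinase phosphatase, Cltb, a clathrin light chain, Gm9817, a predicted gene, and Inhbb, the beta B subunit of activin, were also among the 10. Without 0 h R2 the peaks of Inhbb and Cldn3 were not called, and without 0 h R1 that of Cltb was not.

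Away from promoters, the largest loss was at a peak 22925 bp from Inhbb (-2.16). A peak in an intron of Mras, a Ras-related GTPase, had 72.9, 72.2, 16.7 and 18.1 (chromosome 9, 99417635 to 99419144; log2 fold change -2.05, SE 0.31, adjusted p = 4.7e-05), and one 17754 bp from Arl4d, an ARF-like GTPase, had 175, 215, 38.9 and 61.9 (log2 fold change -1.93, SE 0.25, adjusted p = 7.9e-06). An intergenic peak whose nearest TSS, 92032 bp away, is that of Fam53a had 291, 273, 72.2 and 83.4 (log2 fold change -1.85, SE 0.21, adjusted p = 1.0e-06). The other 6, whose nearest TSS are those of Psmg1, Ankle2, Srrm4, 9530053A07Rik, Ceacam16 and Tmem233, had log2 fold changes from -1.96 to -1.87. All 10 were chosen with both 48 h libraries below both 0 h libraries, which fixes that the groups do not overlap. The peaks of Srrm4 and Ceacam16 were not called without 0 h R2.

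The genes with the most lost peaks were Klf5 and Tfap2c. Klf5, a zinc finger factor of naive pluripotency, lost 12 of 29 peaks over 91 kb and gained none, with sums of 4673, 4723, 2326 and 3241 and a lost promoter, at 449, 634, 283 and 301 (log2 fold change -0.89, SE 0.18, adjusted p = 0.0018). Tfap2c, an AP-2 factor of trophoblast, germ cells and naive stem cells, lost 12 of 28 and gained none, with sums of 2538, 2591, 1238 and 1483. Its promoter did not pass (-0.73, adjusted p = 0.069). At both loci 48 h R1 was lower than R2. Bhlhe40, a bHLH repressor of the circadian clock, lost 9 of 19, and its promoter was lost too (-1.20, adjusted p = 1.3e-04). Epb41l1, a membrane skeleton protein, Gcnt2, a glycosyltransferase, and Tns3, a focal adhesion protein, lost 8 each. Arl4d, Ggnbp1, Glt1d1, Inhbb and Pcdh10 lost 7 each. At Inhbb the sum over 17 peaks was 1186, 1447, 423 and 513. Of the 7 peaks of Pcdh10, a protocadherin, 6 belonged to a repeat that is described further on.

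The longest lost run was 7 peaks over 18.4 kb of chromosome 1 (180919054 to 180937436) at Lefty1, an inhibitor of Nodal signalling. Its sum was 1009, 981, 454 and 479, and the log2 fold changes ran from -2.35 to -0.80. The next, 6 peaks over 28 kb of chromosome 14 (70617706 to 70645689), lay at Fgf17, an FGF ligand, and Dmtn, the actin-bundling protein dematin, with 2879, 2820, 1368 and 1310. Both fell to about the same level in R1 and R2. Runs of 5 were found in other places. Those near Arl4d, with 843, 898, 290 and 399, near Arc and Mroh4, with 1082, 1121, 561 and 770, and at Palm3, with 675, 764, 419 and 353, held no peak of the repeat. Of the run nearest to Rnf32 and Shh, spread over 615 kb, 4 of 5 peaks belonged to it.

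Of 39 pluripotency genes, 38 had a promoter peak, of which 16 lost and none gained H3K27ac (median -0.38, R1 -0.64, R2 -0.26), and 34 of the 38 had a log2 fold change below 0. Nr5a2, a nuclear receptor that can replace Pou5f1 in reprogramming, had 660, 624, 268 and 298 (chromosome 1, 136950979 to 136955803; log2 fold change -1.18, SE 0.17, adjusted p = 3.0e-05). Fgf4, the FGF ligand that stem cells secrete, had 2051, 2237, 988 and 1385 (log2 fold change -0.85, SE 0.15, adjusted p = 3.7e-04), and Tcl1, a coactivator of Akt kinase, had 240, 218, 105 and 123 (log2 ratios -1.06 in R1 and -0.85 in R2, adjusted p = 0.0018). These 3 were called in every other fit. The losses numbered 9 without 0 h R1, 3 without 0 h R2, 17 without 48 h R1 and 24 without 48 h R2. Klf2, Bcl3, Tcea3, Klf5, Nr0b1, Tfcp2l1, Dppa2 and Mybl2 were among the others lost, as was a single broad peak over the promoters of Dppa5a and Ooep, which counts for both genes.

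Of the core factors, Nanog and Esrrb lost H3K27ac and Pou5f1 and Sox2 did not pass the test. The peak over Nanog (chromosome 6, 122700804 to 122713635) had 1991, 1867, 1236 and 1461 (log2 fold change -0.52, SE 0.14, adjusted p = 0.014), and Esrrb, an orphan nuclear receptor, had 3852, 3937, 2357 and 3305 (log2 fold change -0.46, SE 0.14, adjusted p = 0.028). At Esrrb the R1 ratio was -0.72 and the R2 ratio -0.24. The peak over Pou5f1 had 3204, 3295, 2541 and 3006 (log2 fold change -0.23, SE 0.13, adjusted p = 0.26), and that over Sox2 had 2356, 2506, 2131 and 1991 (log2 fold change -0.24, SE 0.13, adjusted p = 0.25). The calls of Nanog and Esrrb were both absent with DESeq2, with the 4 libraries alone and without either 0 h library, and that of Esrrb also with TMM factors. Nanog had 3 lost intergenic peaks besides, and of 41 peaks nearest to Sox2 4 lost and 2 gained H3K27ac. Over all 472 peaks nearest to the 39 genes, 71 lost (15%) and 19 gained it (4.03%), against 5.45% and 8.56% of all peaks.

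Signalling and adhesion genes were split. Among 32 genes of Nodal and BMP signalling and their Id targets, 6 of 30 promoters gained and 4 lost H3K27ac (median 0.24, R1 0.48, R2 -0.11). Of all 250 peaks nearest to them, 32 gained (12.8%) and 28 lost it (11.2%), against 8.56% and 5.45% of all peaks. The gains included the bHLH inhibitors Id1, at 123, 153, 403 and 244 (log2 fold change 1.22, SE 0.23, adjusted p = 5.9e-04), Id2, at 674, 653, 1509 and 1040 (log2 fold change 0.94, SE 0.17, adjusted p = 3.7e-04), and Id4 (0.93, adjusted p = 0.043), and the losses were the ligands and inhibitor Nodal (-0.72), Inhbb (-1.85), Bmp4 (-1.18) and Lefty1 (-0.91). The gains numbered 15 without 48 h R2, 4 without 48 h R1 and 2 without either 0 h library, and the losses 7 without 48 h R1 and 2 without 0 h R2. Id proteins bind E proteins and keep them from bHLH factors. Among 28 epithelial and mesenchymal genes, 7 of 25 lost and 3 gained it (median -0.33, R1 -0.27, R2 -0.43). Esrp1, an epithelial splicing regulator, had 309, 330, 121 and 125 (log2 fold change -1.38, SE 0.20, adjusted p = 3.2e-05), and Cldn3, Cldn4, Jup, Dsp and Epcam, which are parts of epithelial junctions and adhesion, fell by 0.52 to 1.65 on the log2 scale. The gains were at Zeb2, a repressor of epithelial genes, and at Cdh3 and Cdh6, which are cadherins. The losses numbered 2 without 0 h R1, 1 without 0 h R2, 11 without 48 h R1 and 7 without 48 h R2. Of all 187 peaks nearest to the list, 19 gained (10.2%) and 25 lost H3K27ac (13.4%).

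In the FGF list, 3 of 22 gained and 2 lost H3K27ac (median 0.01, R1 0.20, R2 -0.17), with Fgf17 at 313, 247, 125 and 93.7 (log2 fold change -1.36, SE 0.22, adjusted p = 1.5e-04). In the Wnt list it was 3 and 1 of 24 (median 0.17, R1 0.30, R2 -0.24), with Wnt5a at 18.5, 14.9, 97.7 and 74.8 (log2 fold change 2.35, SE 0.32, adjusted p = 1.2e-05). Their gains numbered 9 and 10 without 48 h R2 and 0 and 1 without 0 h R2, and their losses 6 and 7 without 48 h R1. Among 32 genes of cell cycle exit and the Myc family, 3 gained and 2 lost it (median 0.16, R1 0.25, R2 -0.04). Mycl, a Myc family member, had 585, 444, 1313 and 1004 (log2 fold change 1.17, SE 0.17, adjusted p = 3.8e-05), and Gadd45g, a growth arrest gene, had 52.3, 57.3, 160 and 149 (log2 fold change 1.49, SE 0.23, adjusted p = 9.0e-05). Both were called in every other fit. The losses were at Gadd45a (-0.74) and the cyclin Ccne1 (-0.61). Without 48 h R2 there were 11 gains, and without 0 h R2 no losses. Of 11 promoters of mesoderm, endoderm and trophoblast genes none was called (median -0.31, R1 0.07, R2 -0.35), against 3 lost without 48 h R1 and 2 gained without 48 h R2. Of all 119 peaks nearest to these genes, 18 lost (15.1%) and 5 gained H3K27ac (4.2%), against 5.45% and 8.56% of all peaks. Of the 18, 12 were the lost peaks of Tfap2c described above, which is in this list.

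In a list of 15 DNA methylation genes that does not hold Dnmt3a, Tet3 gained (0.75) and Tet2 lost H3K27ac (-0.53), and the list had median -0.12, R1 0.03, R2 -0.12. The Tet3 call was absent without 48 h R1 and without either 0 h library, and the Tet2 call was kept in 3 of 10 other fits. Losses in the list numbered 5 without 48 h R2 and 0 without either 0 h library. Of 10 germline genes 1 lost it, Aurkc, and 2 did without 48 h R2. Of 7 glial genes Slc1a2 gained (2.17) and Nfib lost it (-1.03), both in all other fits. Of 5 muscle genes Mymx lost it (-0.87), but not without 0 h R2. Of 8 fibroblast genes 2 gained it, among them Twist1 (1.11), but none without 48 h R1 or without 0 h R2. The promoters of the E protein genes Tcf3 (0.22, adjusted p = 0.41) and Tcf12 were not called, whereas both were without 48 h R2 and 1 with TMM factors or the GC offset, and 7 of the 20 peaks nearest to the pair gained H3K27ac. None of 90 ribosomal protein genes was called (median 0.07, R1 0.09, R2 0.03).

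Many lost peaks were copies of one repeated sequence. Words of 20 bases were counted in the central 500 bases of all peaks without regard to their reads, and 2916 peaks (4.36%) shared at least 10 of the 282 words that define the most frequent repeat. Of these, 1133 lost H3K27ac (38.9%) and none gained it, also at an unadjusted p under 0.05, against 3.92% lost in the other 63925 peaks. They made up 31.1% of all lost peaks, and 98% of them had a log2 fold change below 0, against 52.8% of all peaks. The median log2 fold change was -0.76 (R1 -0.69, R2 -0.60). Summed over the 2916 peaks, the share of the repeat was 2.88% and 3.5% of all reads in the 0 h libraries, 2.41% and 2.38% in those at 12 h and then 1.8% and 1.96%. Both 48 h libraries were below all others. The copies lay between genes (2216) or in introns (682) and hardly at promoters (16), and their median GC content was 60.0%. Reads of near-identical copies cannot be assigned to one of them with certainty, and how the authors treated reads with several matches is not given in the sources used here, so that these peaks are not independent of each other. The lost copies numbered 504 without 0 h R1, 9 without 0 h R2, 1247 without 48 h R1 and 1462 without 48 h R2, so that the calls, though not the direction of the sum, rest on 0 h R2. Of 3374 other peaks whose centres are at least 90% repeat-masked in the reference, 7.65% lost and 0.889% gained H3K27ac.

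Other features of the lost peaks differ with and without the repeat. Chromosome X had a lost share of 9.85% (182 of 1847 peaks), the highest of all chromosomes, and 3.99% (62 of 1552) without the repeat, which has 295 copies there. Among peaks of 57.8 to 61.9% GC the lost share was 12.5% with the repeat and 3.83% without it. All but 1 of the 2916 copies hold a CACCTG site, with a median of 4 sites, and among lost peaks away from promoters CACCTG was found in 59.7% with the repeat and 37.4% without it, against 37.1% and 34.4% of uncalled peaks. Without the repeat, 2509 peaks were lost and 183 genes had 3 or more lost peaks.

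**Figure D5:**
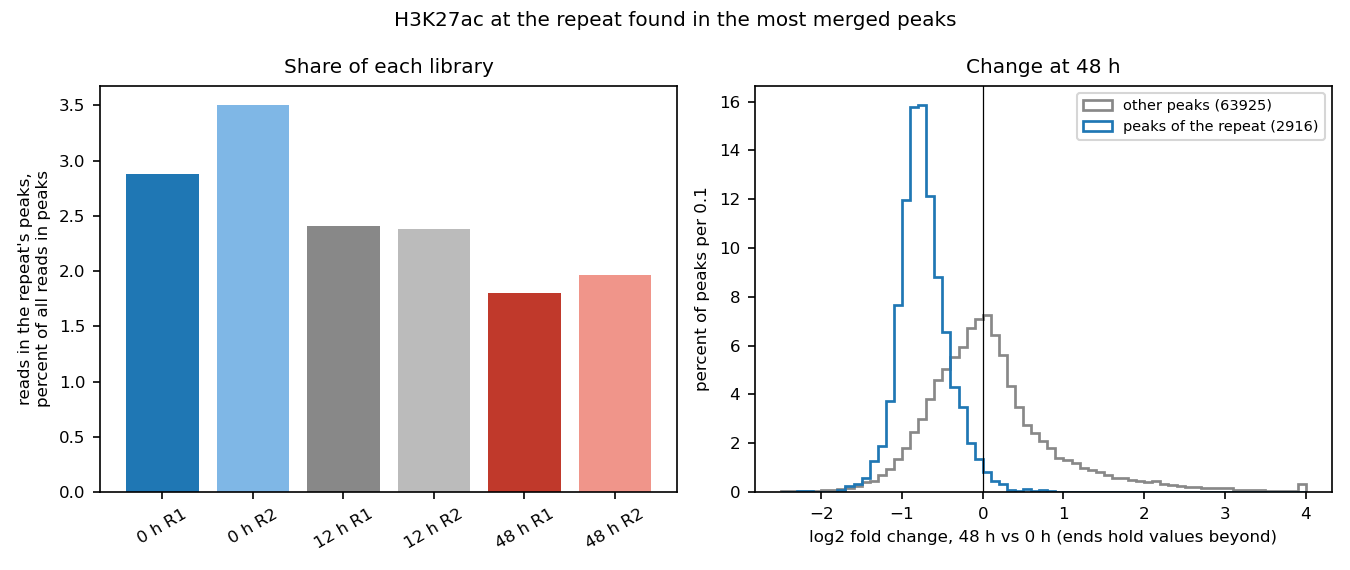
The left panel plots the share of each library's reads in peaks that fell in the 2916 peaks of the repeat (y axis, percent), where the 48 h libraries (1.8 and 1.96) lie below those at 0 h (2.88 and 3.5). The right panel plots the distribution of log2 fold changes at 48 h vs 0 h (x axis) as the percent of peaks (y axis) for these and for all other peaks.

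Short motifs were counted on both strands in the 500 bases around the peak centre, and are described for the peaks away from promoters and outside the repeat (4923 gained, 2041 lost and 40503 uncalled). CAGATG was found in 43.7% of the gained, 26.4% of the lost and 31.5% of the uncalled peaks, and in 32.6% of all of them. CAGCTG was found in 31.7% of the gained, 25.4% of the lost and 25.4% of the uncalled peaks (26.1% of all), and CACCTG in 28.5% of the gained, 37.4% of the lost and 34.4% of the uncalled peaks (33.9% of all). CAGATG was not alone in being more frequent in gained peaks, since CAAATG was found in 33.6% of the gained, 21.8% of the lost and 24.9% of the uncalled peaks (25.7% of all) and CATATG in 9.73% of the gained, 5.78% of the lost and 7.5% of the uncalled peaks (7.65% of all). The site CACGTG was also more frequent in lost than in gained peaks, with 5.48% of the gained, 8.23% of the lost and 8.07% of the uncalled peaks (7.81% of all). At promoters CAGATG was found in 33.7% of gained, 22.5% of lost and 21.2% of uncalled peaks (21.8% of all), and CACCTG in 25.7%, 51.1% and 34.8% (34.8% of all). AACAAAG, a site of Sox factors, was found in 17.6% of the gained, 10.7% of the lost and 12.6% of the uncalled peaks (13% of all), and ATGCAAAT, the octamer of POU factors, in 4.35% of the gained, 2.35% of the lost and 2.43% of the uncalled peaks (2.63% of all). TCAAGGTCA, the extended half-site of Esrrb and Nr5a2, was found in 1.22% of the gained, 3.67% of the lost and 1.95% of the uncalled peaks (1.95% of all), and GGGTGTGG, a site of Klf factors, in 3.86% of the gained, 7.89% of the lost and 5.92% of the uncalled peaks (5.79% of all). Over all peaks, those at promoters and of the repeat included, the median GC content was 47.0% in gained, 54.7% in lost and 50.3% in uncalled peaks. The part of GC content in the motif shares was not tested.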

How the data were processed

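H3K27ac ChIP-seq reads had been aligned to mm10 (GRCm38) with Bowtie2, and the submitters' processing notes also name FastQC, SAMtools 0.1.19 and MACS2. The authors deposited raw read counts per merged peak and library, counted with QuasR, which were used as deposited, with 6283103 to 8112895 reads per library. The input sample was not analysed here. All 66841 peaks of the 6 libraries were fitted with edgeR 4.0.16 (R 4.3.3; glmQLFit and glmQLFTest, library totals as scale, no covariate), and 48 h was tested against 0 h at an adjusted p of 0.05. The SE is the log2 fold change divided by the root of the F statistic. The residual degrees of freedom were 3 and the biological coefficient of variation 14.9%. Intervals and floors (3 reads) cover counting error only. Genes, places and sequences were taken from the reference of the same build. Named were the 10 gained and 10 lost promoter and other peaks with the largest change and at least 20 reads on average, genes with the most changed peaks in their net count, the longest runs, called list members and the loci of the transgene and of core factors. The gene lists, motifs and named members were chosen with earlier results of these data known. The repeat, its parameters, and Tcf12 as a described locus were chosen after the data were seen. Peaks on chromosome 18 were counted but not named, and some genes are not reported here. Alternatives were DESeq2 1.42.0, TMM factors, a filter on low counts (10 reads in 2 libraries), the 4 libraries alone, a replicate block, a GC offset, a 2-fold minimum, gene bodies with 10 kb, and leaving out each library.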

Additional observations from a re-analysis of the deposited data

How the results depend on the processing

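None of 164 called peaks that are named or belong to a gene list changed direction in the other fits. No peak was called in opposite directions by the reported fit and another. The 164 were chosen as called and the other fits use the same counts, so that this could hardly turn out otherwise and is no separate support. The number of calls depended on the libraries. Leaving out 1 library at a time gave 1642 to 8267 gained peaks, 325 to 7470 lost peaks, 133 to 868 genes with 3 or more gained peaks and 9 to 748 with 3 or more lost peaks, the lowest without 0 h R2. DESeq2 called 3592 gained and 1030 lost peaks, with 371 and 38 such genes, and gave no adjusted p for 6480 peaks. The 4 libraries alone gave 2029 lost peaks and 97 genes, a minimum change of 2-fold 1488 and 67, TMM factors 159 genes, the GC offset 449 and gene bodies with 10 kb 166 genes with 3 or more lost peaks. Apart from the minimum change and the libraries alone, which change the threshold or the samples by construction, the cause was not tested. Of the 164, 155 were also called with TMM factors, 122 with DESeq2, 160 with the filter, 132 with the 4 libraries alone, 164 with the GC offset and 77 without 0 h R2.

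The labels do not say whether the replicate numbers pair the samples, and the low correlations that follow cannot exclude it. The correlation of the R1 deviations was -0.09 between 0 h and 48 h and 0.11 between 12 h and 48 h. With the replicate block 5963 peaks gained and 3753 lost H3K27ac. The limits are 2 libraries at each time point, whose separate origin the labels do not state, and 48 h libraries that differ with GC content.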
